A study of Mus musculus with 24 samples.

Results

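Spontaneously waking mice were compared with sleeping mice in the unbound fraction of cerebral cortex, which is the RNA left in the supernatant after ribosomes of astrocytes had been pulled down. The comparison rests on the 4 arrays labelled as unbound fraction of waking or of sleeping mice, 2 per state, out of 24 arrays in the series. It is described across 18193 genes. The 2 unbound pools of sleep-deprived mice entered the fit to help estimate the spread, and the 18 arrays of the bound fraction served as a second reading of the same animals, as the reference for marker levels and in 1 alternative fit.

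All mice were heterozygous for the aldh1l1 - eGFP-L10a transgene, in which the Aldh1l1 promoter, active in astrocytes, drives a ribosomal protein fused to a fluorescent tag. Each unbound array held RNA pooled from 3 animals, animals 1 to 3 in the first pool of a state and animals 4 to 6 in the second. Sleeping mice were killed in the light phase, between 3 and 5 pm, after a sleep bout longer than 45 min and at least 75% sleep over the previous 6 to 7 h. Waking mice were killed in the dark phase, between 3 and 5 am, after a waking bout longer than 1 h and at least 70% waking over the previous 6 to 7 h. Sleep-deprived mice were kept awake for 4 h of the light phase by giving them new objects. Waking and sleep therefore also differed in the time of day, and the contributions of state and clock time cannot be told apart. The pools come from separate animals, but with 2 against 2 no exact permutation test of a single gene could go below a p of 0.333.

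Cortical neurons that fire during waking transcribe immediate early genes, whose messages appear within minutes and encode transcription factors, synaptic proteins and phosphatases that turn the signal off again. Other transcripts follow the time of day through the circadian clock, in which CLOCK and BMAL1 drive their own repressors and a set of output genes. Further transcripts follow brain temperature, which is lower in sleep, and include the cold-inducible RNA-binding proteins. Because the supernatant keeps the RNA of all cells of the tissue, transcripts of neurons, of glia and of vessels are all read together, and in such bulk RNA fewer cells of a type and less RNA per cell cannot be told apart.

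The arrays differed in their overall level by state. Over the tested genes the median log2 level was 6.64 and 6.63 in the sleep pools, 6.95 and 6.97 in the waking pools and 6.80 and 6.78 in the sleep deprivation pools, so the median gene was 0.30 log2 units higher in waking as deposited. Arrays of the same group shared between 220 and 2400 exactly equal values in each of 48 pairs, whereas arrays of different groups shared at most 3 values in each of 228 pairs. Which arrays the authors normalized together is not given in the sources used here, so an offset from separate runs and an effect of state cannot be told apart. Every unbound level below was therefore shifted by a constant per array to a common median, after which the median difference of all genes was -0.02. Bound arrays were shifted in the same way to a common median of their own. A constant shift leaves any difference between runs in single genes in place. For each gene, such a difference and an effect of state cannot be told apart. Pools of the same state correlated at 0.9884 for sleep, 0.9877 for waking and 0.9875 for sleep deprivation across genes, which are not independent replicates.

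No gene passed the test at an adjusted p under 0.05 (limma, Benjamini-Hochberg over 18193 genes; 0% higher and 0% lower), and the lowest adjusted p was 0.0551, shared by 40 genes. At an unadjusted p under 0.05 there were 1658 genes (9.11%) with a higher and 2013 (11.1%) with a lower level in waking. The median standard error (SE) of a difference was 0.20 log2 units. For description only, an adjusted p under 0.10 was used as a second limit after none had passed the first. It held for 403 genes (2.22%) that were higher and 575 (3.16%) that were lower in waking. The 2 waking pools lay above the 2 sleep pools in 4428 genes (24.3%) and below them in 5069 (27.9%). These shares are the background against which the counts of gene groups below are read. On the values as deposited, without the shift, 1149 genes passed an adjusted p of 0.05, 1039 (5.71%) higher and 110 (0.605%) lower, so the count and its split by direction moved with the scaling. Averaging all probe sets of a gene gave 330 genes, letting the spread depend on the level gave 426, and fitting all 24 arrays together gave 784.

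Dim genes, with a mean level below 5.67 (the median of all probe sets on the unbound arrays), made up 6889 of the 18193 genes. They held 248 of the 403 genes that were higher at the second limit and 445 of the 575 that were lower. Among 6519 genes with a mean level of at least 8, the limit held for 51 higher and 34 lower genes. The tenth of genes with the lowest levels had a median difference of -0.20, which became -0.01 when quantile normalization was repeated over the 6 pools. Dim genes are therefore named as such below. Of 44 named genes with more than 1 probe set, 24 had probe sets of both signs; besides those given with their values below, they include Rsrp1, Cebpd, Dusp10, Clock, Grin3a, Fkbp5, Egr3, Nptx2 and Efcab2.

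**Figure D1:**
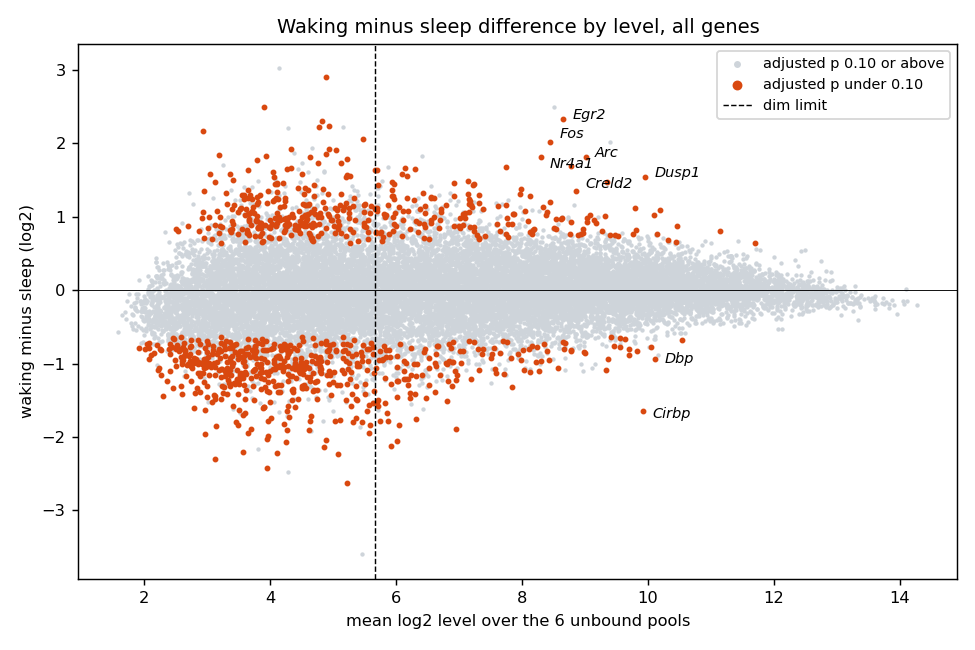
Difference between waking and sleep pools (log2, vertical axis) against the mean log2 level over the 6 unbound pools (horizontal axis) for 18193 genes, with orange points for an adjusted p under 0.10 and a dashed line at the dim limit of 5.67. Of the 978 orange points, 693 lie left of the line. Egr2, Fos, Arc, Nr4a1, Dusp1 and Cirbp are among the labelled genes with a mean level of at least 8. The largest absolute difference at such levels was 2.50, in a gene not named here.

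Transcription factors of the immediate early class were the group with the highest median difference among lists of more than 2 measured genes. Of 28 genes, 7 were higher and 1 was lower at the second limit, and 13 were higher and 1 was lower at an unadjusted p under 0.05. The waking pools lay above the sleep pools in 17 and below them in 2, against 24.3% and 27.9% of all genes. The median difference was 0.43 log2 units, against -0.02 for all genes. The lists were chosen with earlier results of these data known, so these counts and the ranking are a description. Egr2, a zinc finger factor induced by synaptic activity, was at 6.42 and 7.52 in the sleep pools and at 8.95 and 9.66 in the waking pools. This was 5.05-fold (log2 2.34 ± 0.44 SE, adjusted p = 0.0709). Fos, the AP-1 subunit used as a marker of active neurons, was at 7.22 and 6.67 in sleep and at 8.69 and 9.24 in waking, a 4.05-fold difference (2.02 ± 0.29, adjusted p = 0.0567). Nr4a1, an orphan nuclear receptor induced by calcium entry, was at 7.34 and 6.73 in sleep and at 8.67 and 9.02 in waking, 3.50-fold higher (1.81 ± 0.25, adjusted p = 0.0567). For all 3 genes every waking pool exceeded every sleep pool by more than 1 log2 unit.

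Other members of the class were higher by less. Maff, a small Maf protein that pairs with other basic leucine zipper factors, was at 4.49 and 4.53 in sleep and at 5.87 and 6.02 in waking (1.43 ± 0.18, adjusted p = 0.056), so that both sleep pools lay below the dim limit. Klf10, a Krüppel-like repressor, was at 9.29 and 8.71 in sleep and at 10.10 and 10.12 in waking (1.11 ± 0.22, adjusted p = 0.0765). Jun, the partner of Fos, was 1.70-fold higher (0.76 ± 0.16, adjusted p = 0.0851) and Nfil3, a repressor of clock output genes, 1.69-fold (0.76 ± 0.15, adjusted p = 0.0765). In these 4 genes the waking and sleep pools did not overlap. Atf3, a factor induced by cell stress, went the other way, from 5.41 and 5.19 in sleep to 3.89 and 3.87 in waking (-1.42 ± 0.24, adjusted p = 0.0617), at levels below the dim limit in every sleep and waking pool.

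Other classical early genes did not reach the second limit. Egr1 was already high in sleep, at 11.96 and 12.02, and was at 12.38 and 12.67 in waking, with no overlap (0.53 ± 0.17, adjusted p = 0.168). Egr3 was at 10.33 and 10.23 in sleep and at 10.58 and 10.51 in waking (0.27 ± 0.15, adjusted p = 0.377). Fosb was at 6.96 and 6.19 in sleep and at 6.26 and 7.54 in waking, so its pools overlapped (0.33 ± 0.46, adjusted p = 0.744), and leaving out the second pool of either state turned its sign. Npas4, a neuronal factor with strict activity dependence, was dim and varied widely between pools of one state, at 5.18 and 4.13 in sleep and at 4.40 and 6.36 in waking (0.72 ± 0.69, adjusted p = 0.615).

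A list of activity-induced effectors, most of them genes of synaptic, secreted or signalling proteins, held 5 higher and 0 lower members among 30 at the second limit, with a median difference of 0.15. Arc, whose protein promotes the removal of AMPA receptors from synapses, was at 7.55 and 7.83 in sleep and at 9.21 and 9.80 in waking. Its level was 3.52-fold higher in waking (1.81 ± 0.27, adjusted p = 0.0567), with no overlap of pools. Ptgs2, the inducible cyclooxygenase, was at 5.87 and 6.36 in sleep and at 7.63 and 7.46 in waking (1.43 ± 0.25, adjusted p = 0.0662). Inhba, which encodes an activin subunit, was at 8.51 and 8.40 in sleep and at 9.61 and 9.34 in waking (1.02 ± 0.23, adjusted p = 0.091), while its other probe set differed by -0.25. Midn was 1.76-fold higher (0.82 ± 0.18, adjusted p = 0.0876). The fifth, the matrix protein gene Ccn1, was dim, at 2.90 and 3.21 in sleep and at 4.42 and 4.99 in waking (1.64 ± 0.25, adjusted p = 0.0567), and its 4 probe sets ran from -0.35 to 1.64. Homer1, a postsynaptic scaffold gene with a short activity-induced form, was at 11.02 and 11.01 in sleep and at 11.39 and 11.49 in waking (0.42 ± 0.15, adjusted p = 0.192); its 6 probe sets ran from -0.14 to 1.08. The growth factor gene Bdnf overlapped between states (0.43 ± 0.23, adjusted p = 0.362), and the synaptic pentraxin gene Nptx2 was slightly lower in both waking pools (-0.30 ± 0.22, adjusted p = 0.506).

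Feedback inhibitors of the MAP kinase cascade held 3 higher and 0 lower genes among 13 at the second limit, with a median difference of 0.34. Dusp1, a nuclear phosphatase of MAP kinases, was at 8.98 and 9.28 in sleep and at 10.65 and 10.69 in waking, a 2.90-fold difference (1.54 ± 0.17, adjusted p = 0.0551). With predicted and unnamed transcripts skipped, it was the 1 list member among the 10 genes with the highest test statistic. Dusp4 was at 6.52 and 6.09 in sleep and at 7.93 and 7.57 in waking (1.45 ± 0.24, adjusted p = 0.0599). Dusp5, which acts on ERK in the nucleus, was at 6.82 and 6.99 in sleep and at 7.98 and 7.91 in waking (1.04 ± 0.16, adjusted p = 0.0567). Spry4 was 2.05-fold higher, but its sleep pools differed widely, at 6.50 and 7.61 (adjusted p = 0.187). Its 4 probe sets were all higher in waking, by 1.04 to 2.16 log2 units. Dusp10, a phosphatase of JNK and p38, was lower in waking, at 6.07 and 6.48 in sleep and at 5.57 and 5.10 in waking (-0.95 ± 0.24, adjusted p = 0.11).

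**Figure D2:**
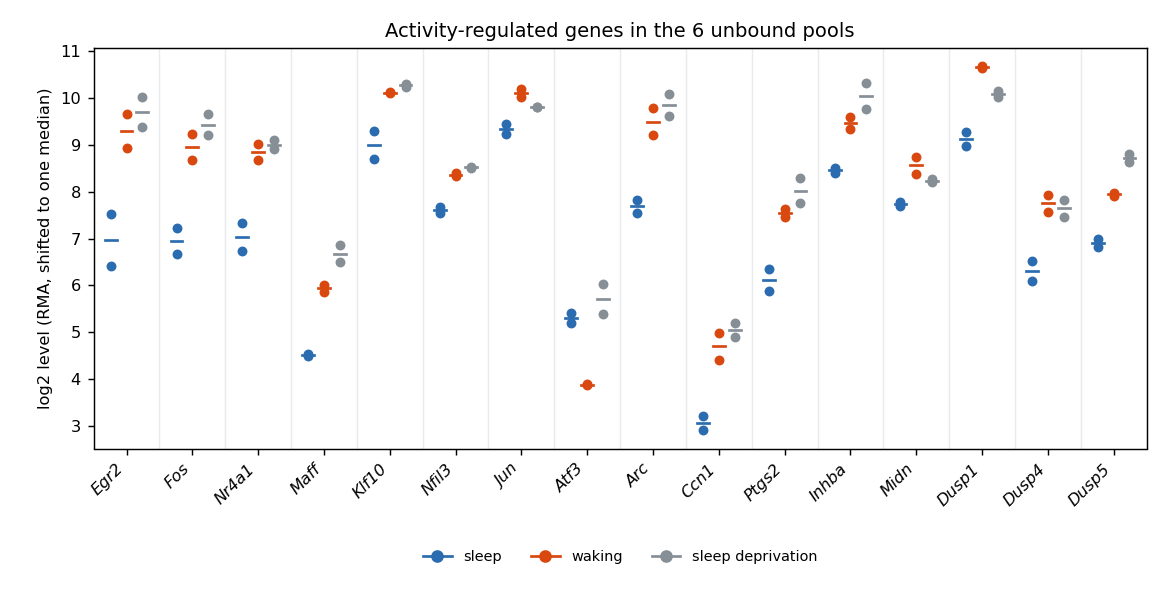
Log2 levels of 16 activity-regulated genes (horizontal axis) in the 6 unbound pools after the shift to one median (vertical axis, log2), with a point per pool, a bar at the mean of each state and colours for sleep, waking and sleep deprivation. The genes are the members of the early, effector and MAP kinase feedback lists at adjusted p under 0.10, so separated pools follow from the choice. Over all measured members, pools overlapped in 9 of 28, 14 of 30 and 2 of 13 genes of these lists. In 15 genes both orange waking points lie above both blue sleep points, with Egr2 moving from 6.42 and 7.52 to 8.95 and 9.66; in Atf3 they lie below.

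The sequences upstream of Fos, Nr4a1 and Dusp1, and of the heat shock gene Hspa1b described below, are shown because the genes were high together in waking. Of 24 members of the early, effector, phosphatase, clock, cold and heat shock lists at the second limit, 20 had a window in the RefSeq promoter table of build GRCm38.p6 and 16 had exactly 1; the 4 printed are those with the largest differences among the 16 whose level was not dim. Each run holds the 250 bases before the annotated start, 5′ to 3′ on the strand of the gene, with capitals for a match to a searched motif.
Fos, chr12:85473640-85473889, plus strand: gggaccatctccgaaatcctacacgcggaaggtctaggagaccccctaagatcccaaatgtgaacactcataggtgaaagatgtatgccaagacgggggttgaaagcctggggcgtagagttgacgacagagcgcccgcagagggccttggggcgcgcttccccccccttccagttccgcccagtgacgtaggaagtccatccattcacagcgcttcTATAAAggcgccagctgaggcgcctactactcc
Nr4a1, chr15:101266596-101266845, plus strand: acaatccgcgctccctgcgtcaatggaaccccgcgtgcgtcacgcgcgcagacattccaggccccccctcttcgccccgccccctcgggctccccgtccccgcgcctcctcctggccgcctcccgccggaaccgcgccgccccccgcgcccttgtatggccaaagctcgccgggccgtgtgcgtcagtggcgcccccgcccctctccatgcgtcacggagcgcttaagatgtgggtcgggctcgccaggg
Dusp1, chr17:26508473-26508722, minus strand: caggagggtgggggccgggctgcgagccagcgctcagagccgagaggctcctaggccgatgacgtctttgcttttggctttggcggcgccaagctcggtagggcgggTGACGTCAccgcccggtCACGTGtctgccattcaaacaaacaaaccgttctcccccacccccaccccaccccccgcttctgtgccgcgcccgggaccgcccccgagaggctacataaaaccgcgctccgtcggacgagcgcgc
Hspa1b, chr17:34959239-34959488, minus strand: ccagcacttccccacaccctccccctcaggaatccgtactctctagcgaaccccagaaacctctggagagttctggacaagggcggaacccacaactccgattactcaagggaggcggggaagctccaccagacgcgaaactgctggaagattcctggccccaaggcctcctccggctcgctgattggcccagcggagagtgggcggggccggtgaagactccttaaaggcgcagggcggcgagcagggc

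The motifs were searched as exact letters on both strands in these 250 bases. They were the full cyclic AMP response element (CRE, TGACGTCA), the E-box CACGTG, the AP-1 site TGANTCA, the D-box TTATGTAA, the heat shock element, the EGR site GCGTGGGCG, the TATA box TATAAA and the CArG box of serum response factor. The upstream run of Dusp1 held a CRE at -143 to -136 and an E-box at -126 to -121 from the start. Fos held a TATA box at -33 to -28. Among 32851 windows in the table the CRE occurred in 1.55%, the E-box in 6.02%, the TATA box in 12.4% and the CArG box in 1.47%. Windows of early transcription factors held a CRE in 2 of 31, a CArG box in 4 and an AP-1 site in 1. Those of effector genes held a CRE in 4 of 34, a CArG box in 0 and an AP-1 site in 1, against 6.75% of all windows for the AP-1 site. Those of clock repressors and outputs held an E-box in 6 of 13 and a D-box in 1, and those of cytosolic and mitochondrial chaperones a heat shock element in 2 of 31 (0.466% of all windows). These counts are of windows and not of genes, because a gene can have several, such as Egr2 with 5 and Maff with 3. A match is a description of letters and no measure of binding.

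Cirbp, the cold-inducible RNA-binding protein, had the largest difference of any gene with a mean level of at least 8 that was lower in waking at the second limit. Its level was 10.81 and 10.56 in the sleep pools and 8.93 and 9.16 in the waking pools, 3.12-fold lower in waking (-1.64 ± 0.19, adjusted p = 0.0551). Every sleep pool stood at least 1 log2 unit above every waking pool. Rbm3, the other gene of that list, was not analysed here.

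Of 13 clock repressors and clock outputs, 1 was higher and 3 were lower in waking at the second limit, and the median difference was -0.10. Dbp, an output factor driven directly by CLOCK and BMAL1, was at 10.89 and 10.78 in sleep and at 9.88 and 9.91 in waking (-0.94 ± 0.15, adjusted p = 0.0574), and its other probe set differed by -0.96. Ciart, a repressor of CLOCK and BMAL1, was at 6.99 and 6.90 in sleep and at 5.79 and 6.07 in waking (-1.01 ± 0.17, adjusted p = 0.0618). Nr1d1, the nuclear receptor that represses Bmal1 transcription, was at 9.32 and 9.24 in sleep and at 8.48 and 8.38 in waking (-0.85 ± 0.18, adjusted p = 0.0865). Per3 was higher in waking, from 7.31 and 7.16 to 7.85 and 8.11 (0.74 ± 0.17, adjusted p = 0.092), but 4 of its 6 probe sets differed the other way. The pools of these 4 genes did not overlap.

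The period genes Per1 and Per2 encode core repressors of the clock. Per1 was at 8.53 and 8.53 in sleep and at 8.63 and 8.42 in waking (-0.002 ± 0.17, adjusted p = 0.997). Per2 varied more between the sleep pools, at 7.14 and 5.91, than between states (0.55 ± 0.41, adjusted p = 0.514). The 3 probe sets of Per2 ran from -0.12 to 1.98, so its reading depends on the probe set used. Cry1 was higher in both waking pools (0.47 ± 0.24, adjusted p = 0.346), while the output gene Tef overlapped (-0.10 ± 0.20, adjusted p = 0.829). Among 6 genes of the opposite arm, Nfil3 alone was higher at the second limit. Clock was at 8.84 and 8.76 in sleep and at 9.18 and 9.32 in waking (0.45 ± 0.15, adjusted p = 0.178), and Arntl, the gene of BMAL1, overlapped (0.08 ± 0.23, adjusted p = 0.888).

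**Figure D3:**
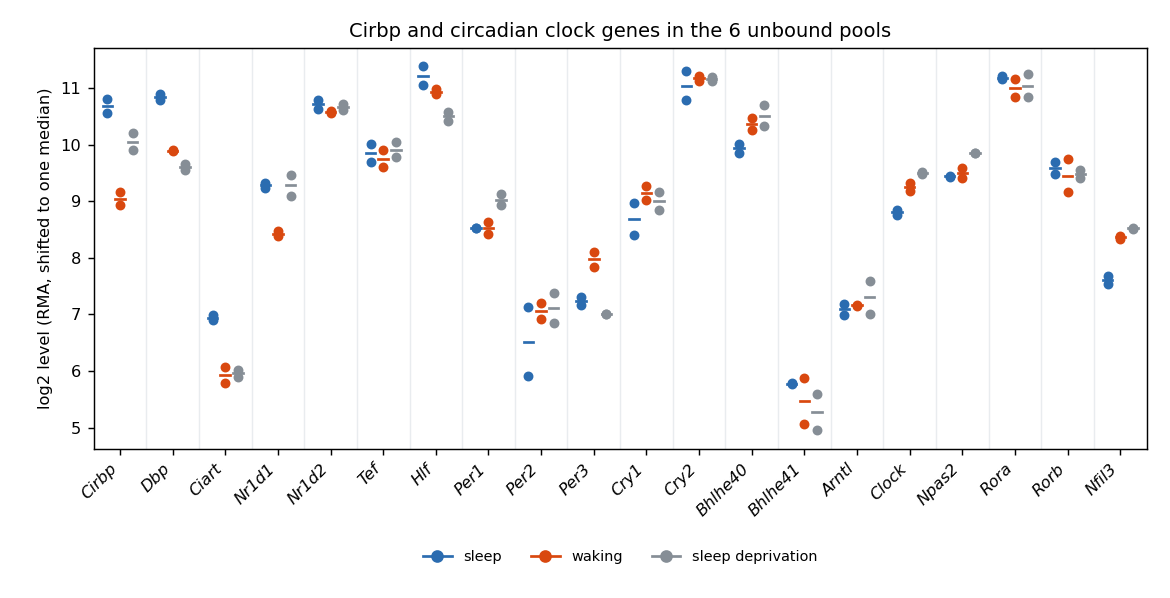
Log2 levels of Cirbp and of 19 circadian clock genes (horizontal axis) in the 6 unbound pools after the shift to one median (vertical axis, log2), with a point per pool and a bar at the mean of each state. Cirbp (10.81 and 10.56 in sleep, 8.93 and 9.16 in waking), Dbp, Ciart and Nr1d1 lie lower in waking, while the sleep and waking points of Per1 and Arntl overlap.

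Chaperone genes had positive medians in both compartments. Of 22 endoplasmic reticulum chaperones and stress genes, 1 was higher at the second limit, 9 were higher and 1 was lower at an unadjusted p under 0.05, and the median difference was 0.34. Creld2, a secreted protein induced by misfolding in the endoplasmic reticulum, was at 7.81 and 8.09 in sleep and at 9.32 and 9.27 in waking, 2.54-fold higher (1.35 ± 0.17, adjusted p = 0.056). Hspa5, the main chaperone of that compartment, was at 10.53 and 10.60 in sleep and at 11.30 and 11.12 in waking (0.64 ± 0.18, adjusted p = 0.125), and Hsp90b1 was 1.38-fold higher (0.46 ± 0.16, adjusted p = 0.179). Ddit3, the factor tied to prolonged stress, was lower, at 9.63 and 9.44 in sleep and at 8.96 and 9.07 in waking (-0.52 ± 0.16, adjusted p = 0.148). Of 26 cytosolic and mitochondrial chaperones, 3 were higher and 0 lower at the second limit, with a median of 0.26. Hspa1b, an inducible Hsp70 gene, was at 5.76 and 6.43 in sleep and at 7.60 and 7.51 in waking (1.46 ± 0.24, adjusted p = 0.0599); its near-identical copy Hspa1a was 2.32-fold higher with more spread (1.21 ± 0.42, adjusted p = 0.186), and cross-hybridization between the copies was not tested. Ahsa1, an activator of Hsp90, was 1.58-fold higher and Cryab, a small heat shock protein, 1.56-fold (adjusted p = 0.0958 and 0.0947). Each of the last 2 had a further probe set with the opposite sign, at -0.43 for Ahsa1 and -1.05 for Cryab. Over the alternative settings their differences went as low as 0.14 and 0.09, in that order. The constitutive Hspa8 differed by -0.10 ± 0.15.

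Among 23 SR splicing factors and their regulators, 2 were higher and 0 lower at the second limit, with a median of 0.15. Tra2a, a splicing activator, was at 9.50 and 9.40 in sleep and at 10.54 and 10.40 in waking (1.03 ± 0.15, adjusted p = 0.0567), with 4 of its 6 probe sets in this direction. Rsrp1, an arginine and serine-rich protein, was at 7.19 and 7.51 in sleep and at 8.54 and 8.32 in waking (1.08 ± 0.18, adjusted p = 0.0618). Srsf5 was lower in waking, from 10.68 and 10.62 to 9.69 and 9.84 (-0.89 ± 0.24, adjusted p = 0.119). Of 22 genes that respond to glucocorticoids, 2 were higher (Dusp1, named above, and the dim lipid droplet gene Plin4) and 1 was lower, with a median of 0.23. The lower one was Cebpd, a transcription factor, at 6.52 and 6.46 in sleep and at 5.70 and 5.30 in waking (-0.99 ± 0.20, adjusted p = 0.0798). Fkbp5, which encodes a partner of Hsp90 that dampens the steroid receptor, was 1.62-fold higher (0.70 ± 0.19, adjusted p = 0.123).

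Synaptic genes were read in 5 lists. None of 26 presynaptic, 19 postsynaptic, 10 GABA receptor and 18 potassium channel genes was at the second limit, and the medians of these lists were -0.03, -0.01, 0.15 and -0.02. At an unadjusted p under 0.05, 3 presynaptic genes were lower and 0 were higher, a share close to that of all genes (11.1% lower). They were Slc17a7, the vesicular glutamate transporter, at 9.12 and 9.34 in sleep and at 8.59 and 8.74 in waking (-0.56 ± 0.17, adjusted p = 0.148), Stx1a, a syntaxin of the fusion machinery (-0.45 ± 0.17, adjusted p = 0.214), and Rims2, an active zone scaffold (-0.43 ± 0.16, adjusted p = 0.201). Of 21 glutamate receptor subunits 1 was lower, the kainate receptor gene Grik5, at 7.29 and 7.25 in sleep and at 6.60 and 6.47 in waking (-0.73 ± 0.15, adjusted p = 0.081). At an unadjusted p under 0.05 this list also held Grin3a, an NMDA receptor subunit (0.85 ± 0.27), Grm7, a metabotropic receptor (0.54 ± 0.17), and Grik1, a kainate receptor subunit (-1.12 ± 0.44), so 2 were higher and 2 lower. Of the potassium channels 3 were higher at that limit, Kcnf1 (0.62 ± 0.16), Kcnh1 and Kcnv1, and Kcnq5 was lower (-0.39 ± 0.15). Of the GABA receptor subunits Gabra2 was higher (0.49 ± 0.17) and Gabrg3 lower (-0.62 ± 0.24).

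Genes of energy metabolism and of protein synthesis had list medians from -0.09 to -0.01. None of 31 respiratory chain subunits was at the second limit or at an unadjusted p under 0.05, and their differences ran from -0.41 to 0.14 with a median of -0.08. The waking pools lay below the sleep pools in 17 of these 31 genes and above them in 1, against 27.9% and 24.3% of all genes. The same counts were 7 and 1 for the 22 genes of glycolysis and 11 and 3 for the 25 ribosomal protein genes. With quantile normalization repeated, the medians of these lists were -0.02 (respiratory chain), -0.03 (glycolysis) and -0.06 (ribosomal proteins). Whether the counts depend on the scaling was not tested. Of the 22 genes of glycolysis and lactate transport none was at the second limit (median -0.01), and none of 19 genes of cholesterol synthesis (-0.09) or of 19 NRF2 and glutathione genes (-0.08). Of 26 translation initiation factors and regulators 1 was lower. This was Eif4ebp1, an inhibitor of cap-dependent translation, at 6.44 and 6.61 in sleep and at 5.32 and 5.26 in waking (-1.24 ± 0.18, adjusted p = 0.0567), while the list median was -0.08. Of 25 ribosomal protein genes 1 was at the second limit, Rpl37, whose probe set was dim at 3.07 and 3.07 in sleep and 3.88 and 3.92 in waking. Rpl10a, the gene of the tagged protein, differed by -0.12 ± 0.15. Of 8 genes of adenosine signalling, the nucleoside transporter gene Slc29a2 was higher, at 5.15 and 5.04 in sleep and at 5.88 and 5.86 in waking (0.78 ± 0.16, adjusted p = 0.081), with both sleep pools below the dim limit.

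**Figure D4:**
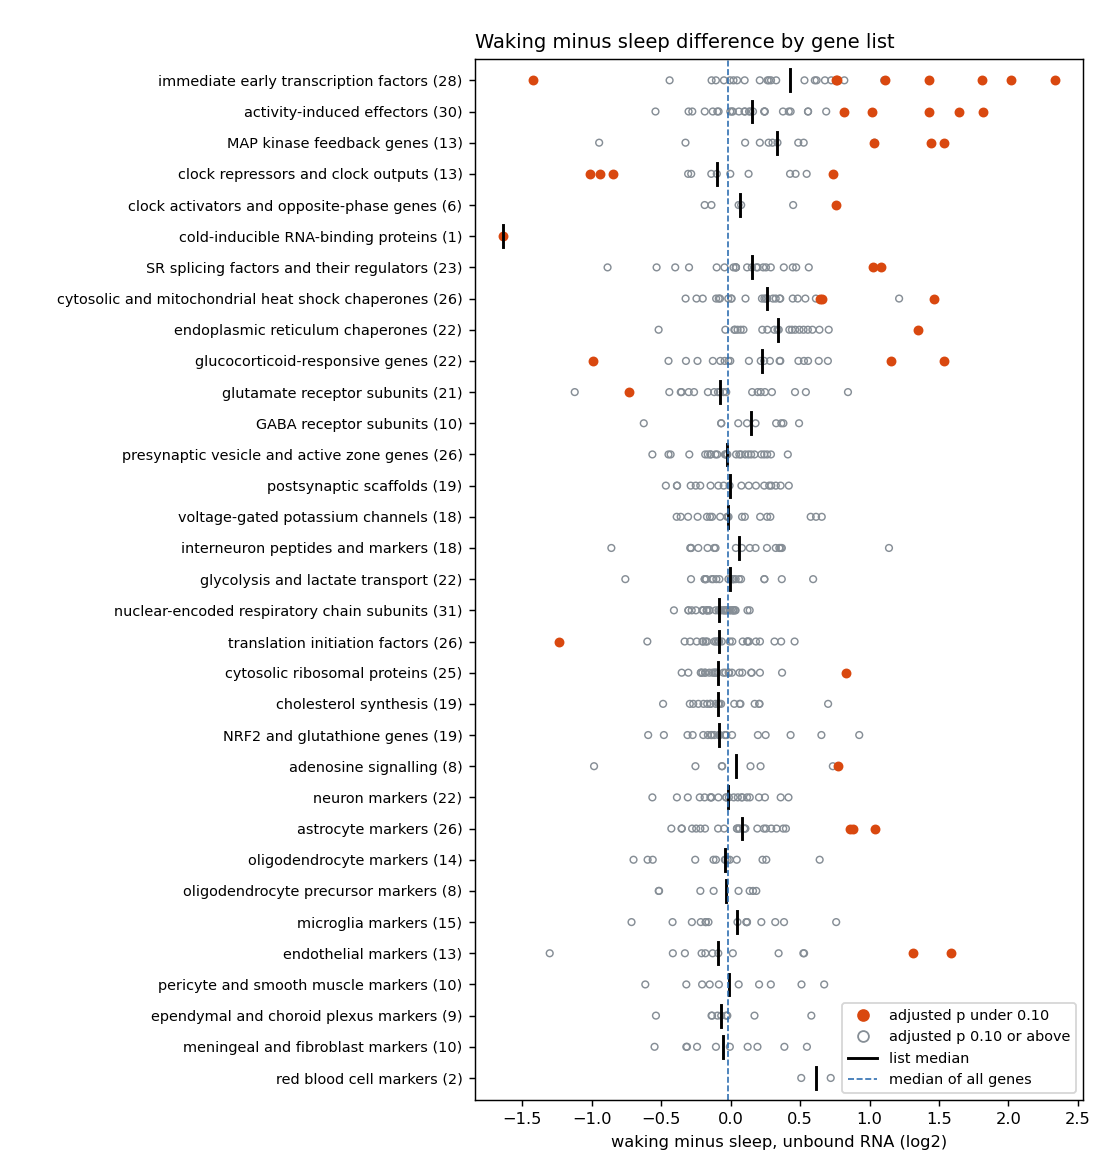
Difference between waking and sleep pools (log2, horizontal axis) for the members of 33 gene lists (vertical axis, number measured in parentheses), with orange points for an adjusted p under 0.10, black bars for list medians and a dashed line at the median of all genes, -0.02. The medians of early transcription factors (0.43), MAP kinase feedback genes (0.34) and endoplasmic reticulum chaperones (0.34) lie to the right, and those of synaptic and metabolic lists near the line. The outermost medians are those of the 2 dim red blood cell markers (0.61) and of the 1 cold-inducible gene (-1.64).

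The composition of the pools was read from marker genes. The supernatant was rich in neuronal RNA: all 22 neuron markers were higher in unbound than in bound sleep samples, with a mean level of 11.5 in unbound sleep and 11.5 in unbound waking, and Snap25 was at 14.08 and 14.05 in sleep and at 13.97 and 13.87 in waking. Aldh1l1, the promoter gene of the transgene, was at 7.30 and 7.22 in sleep and at 7.08 and 6.73 in waking (-0.35 ± 0.19, adjusted p = 0.366), against a mean of 10.90 in bound sleep samples. Astrocyte RNA was present in the supernatant at a lower level, with 0 of 26 astrocyte markers higher in unbound than in bound sleep samples.

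Between states, neuron markers had 0 of 22 genes at the second limit and a median of -0.02, and their mean level per pool was 11.55 and 11.50 in sleep and 11.51 and 11.48 in waking. Interneuron, oligodendrocyte, precursor, microglia, pericyte, ependymal, meningeal and red blood cell markers also had none. Mag, a myelin gene, was lower in both waking pools (-0.70 ± 0.24, adjusted p = 0.182). The choroid plexus marker Ttr was at 12.34 and 13.61 in sleep and at 13.31 and 12.59 in waking, so pools of one state differed by as much as pools of different states. Red blood cell markers were dim, with a mean of 4.63 and 5.18 in the sleep pools and 5.42 and 5.62 in the waking pools. The 9 ependymal markers averaged 6.01 and 6.81 in sleep and 6.55 and 6.22 in waking.

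Astrocyte markers included 3 of 26 genes that were higher at the second limit and 0 that were lower, with a list median of 0.08. Ppp1r3c, which targets protein phosphatase 1 to glycogen, was at 7.35 and 7.14 in sleep and at 8.22 and 8.36 in waking, 2.06-fold higher (1.04 ± 0.16, adjusted p = 0.0567), but its other probe set differed by 0.03 and the mean of both by 0.56. Gjb6, the gene of connexin 30, was at 6.66 and 6.25 in sleep and at 7.47 and 7.21 in waking (0.88 ± 0.20, adjusted p = 0.092). Acsbg1, an acyl-CoA synthetase, was at 6.55 and 6.96 in sleep and at 7.59 and 7.64 in waking (0.86 ± 0.19, adjusted p = 0.0876). Other defining markers stayed close: Slc1a2 was at 12.59 and 12.66 in sleep and at 12.45 and 12.61 in waking, and Gja1 differed by 0.10 ± 0.16. Of 13 endothelial markers, 9 were dim, and the 2 at the second limit, the vascular endothelial growth factor receptor gene Flt1 (1.31 ± 0.19) and the transporter gene Slco1a4 (1.59 ± 0.25), were among them, with an adjusted p of 0.0567 for each. The 4 probe sets of Flt1 ran from -0.56 to 1.31. The endothelial list had a median of -0.09, with differences from -1.30 to 1.59. At an unadjusted p under 0.05, 2 endothelial markers were higher and 1 was lower.

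Beyond the lists, the 10 genes with the highest and the 10 with the lowest test statistic were mostly dim, 18 of 20. Predicted and unnamed transcripts, such as those with Gm numbers or Rik names, were skipped here and among the genes of higher level below. The exceptions were Dusp1 and Slc13a5, a citrate transporter gene, at 7.35 and 7.12 in sleep and at 5.06 and 5.18 in waking (-2.12 ± 0.22, adjusted p = 0.0551), whose other probe set differed by 0.24. Among the dim ones, Lrrc74b was at 4.17 and 4.05 in sleep and at 6.12 and 5.93 in waking, and Apof, an apolipoprotein gene, at 4.69 and 4.55 in sleep and at 2.33 and 2.31 in waking. The others that were higher were Filip1l, Ttf2, Wt1, Postn, Uncx, Tlr13, Mup10 and Rhobtb1, by 1.34 (Postn) to 2.50 log2 units (Mup10). The others that were lower were Ntn3, Igbp1b, Aox4, Dok1, Scnn1a, Muc1, Fbxw22 and Adgrf5, at -1.60 (Scnn1a) to -2.42 (Adgrf5). The other probe set of Adgrf5 was at 0.89 and the mean of both at -0.75. Their levels in the sleep and waking pools lay below 5.67, except for Lrrc74b and Ttf2 in waking and for Ntn3 and 1 pool of Dok1 in sleep.

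Genes with a mean level of at least 8 were looked at separately, a choice made after their values had been seen. Besides Dusp1, Creld2, Nr4a1, Fos, Arc and Tra2a, the highest statistics belonged to Msantd4, Hbs1l, Elof1 and Cbln4. Elof1, an elongation factor of RNA polymerase II, was at 7.36 and 7.24 in sleep and at 8.46 and 8.70 in waking (1.28 ± 0.20, adjusted p = 0.0567). Msantd4 was at 9.80 and 9.84 in sleep and averaged 10.9 in waking (1.09 ± 0.16), and Hbs1l, a ribosome rescue factor, was 2.09-fold and Cbln4, a synapse organizer of the cerebellin family, 1.98-fold higher (adjusted p = 0.0567 for each). The lowest statistics, besides Cirbp and Dbp, belonged to Ech1, Efcab2, Sirt6, Rrp15, Marveld1, Ccs, Parn and Tex9. Ech1, an enzyme of fatty acid oxidation, was at 8.68 and 8.77 in sleep and at 7.62 and 7.60 in waking (-1.12 ± 0.15, adjusted p = 0.0567). Sirt6, a nuclear deacylase, was at 9.16 and 9.33 in sleep and at 8.03 and 8.33 in waking (-1.06 ± 0.19, adjusted p = 0.0655), and Ccs, the copper chaperone of superoxide dismutase 1, was 1.75-fold lower (-0.81 ± 0.16, adjusted p = 0.0741). Parn, a deadenylase, was 1.77-fold lower (-0.83 ± 0.16, adjusted p = 0.0742). Marveld1 and Tex9 had probe sets of both signs, from -1.09 to 2.03 and from -0.81 to 0.91.

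Waking was also set directly against sleep deprivation, which keeps animals awake at the other phase of the day. At an adjusted p under 0.05, 4 genes (0.0220%) were higher and 7 (0.0385%) lower in waking, all 11 of them dim. The higher ones were Wt1, Fgf23, Prokr2 and Zfp758, by 1.91 (Wt1) to 2.72 (Zfp758) log2 units, and the lower ones with a gene name were En2, Myo5c, Ccdc175 and Cdh18, from -2.36 (En2) to -1.78 (Ccdc175). None of the members of the 33 lists passed. With quantile normalization repeated 2 genes passed, and on the values as deposited 138. Fos was at 9.21 and 9.67 in the sleep deprivation pools, 0.48 ± 0.29 above waking (adjusted p = 0.437), Arc at 9.62 and 10.09 (0.35 ± 0.27, adjusted p = 0.529), Egr2 at 9.39 and 10.02 and Nr4a1 at 8.91 and 9.10. Genes with a larger gap included Egr3, at 11.39 and 11.35 under sleep deprivation (waking minus sleep deprivation -0.83 ± 0.15, adjusted p = 0.0767), Cdkn1a, the gene of the cell cycle inhibitor p21, at 9.63 and 9.69 against 8.78 and 8.82 in waking (-0.86, adjusted p = 0.068), Homer1 (-0.64, adjusted p = 0.102) and Dusp5 (-0.79, adjusted p = 0.0894). Cirbp, at 9.90 and 10.21 under sleep deprivation, lay between the 2 other states (waking minus sleep deprivation -1.01, adjusted p = 0.0829), as did Dusp1, at 10.02 and 10.15. Dbp and Ciart were low in both groups that had been awake, at 9.55 and 9.66 and at 5.90 and 6.03, while Nr1d1 stayed at 9.09 and 9.47.

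Against the same sleep pools, sleep deprivation had 76 genes (0.418%) higher and 77 (0.423%) lower at an adjusted p under 0.05, among them Fos (2.49, adjusted p = 0.0429), Nr4a1 (1.97, adjusted p = 0.0447), Arc (2.17, adjusted p = 0.0441), Maff (2.16, adjusted p = 0.0359) and Dbp (-1.23, adjusted p = 0.0441). The corresponding waking differences, given above, missed that threshold, but the tests of waking against sleep deprivation for these 5 genes had adjusted p-values of 0.437, 0.772, 0.529, 0.115 and 0.359, and none passed. The comparisons share the sleep pools.

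The same animals' bound fraction gave a second measurement of waking against sleep, with 6 animals per state. In the bound fraction 1131 genes (6.22%) were higher and 640 (3.52%) lower at an adjusted p under 0.05. Nr4a1 differed by 1.78 in bound and 1.81 in unbound RNA, Maff by 1.45 and 1.43, Egr2 by 2.57 and 2.34, Arc by 2.23 and 1.81, Cirbp by -1.82 and -1.64 and Dbp by -0.91 and -0.94. Each of these 6 genes passed the bound test, and the difference between fractions had an adjusted p from 0.896 to 0.995. Other early and effector genes passed the bound test but differed less in unbound RNA. Nr4a3 differed by 1.03 in bound and 0.05 in unbound RNA, Sik1 by 1.03 and 0.01 and Fosb by 1.14 and 0.33. For these genes the difference between fractions did not pass (adjusted p = 0.228, 0.0558 and 0.63). Fos differed by 1.10 in bound and 2.02 in unbound RNA (difference 0.92 ± 0.50, adjusted p = 0.415) and Dusp1 by 0.71 and 1.54 (0.82, adjusted p = 0.0837). Klf10 differed by -0.15 and Jun by -0.04 in bound RNA, and the differences between fractions did not pass (adjusted p = 0.207 and 0.127). Ptgs2 was at 3.29 in bound sleep and 3.30 in bound waking, too dim there to read a difference.

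In a fit over all 24 arrays, the waking effect differed between fractions in 255 genes (1.40%) that were higher and 624 (3.43%) that were lower in the unbound fraction at an adjusted p under 0.05, of which 764 of 879 were dim. That fit treats the fractions as independent and gives pools of 3 animals the spread of single animals, although both fractions came from the same animals. When each unbound pool was instead set against the mean of the bound arrays of its own 3 animals, 0 genes passed (limma, lowest adjusted p 0.236, 2037 genes at an unadjusted p under 0.05). When dim genes were left out before the fit, 7 genes passed. Leaving out the first sleep pool gave 431, the second sleep pool 516 and the second waking pool 423. On the values as deposited 1018 genes passed, 675 of them higher in the unbound fraction. The values of genes named above are therefore given as a description. Sirt6 differed by -1.06 in unbound and 0.02 in bound RNA (difference -1.08), with an adjusted p of 0.0045 over all 24 arrays, 0.0586 without dim genes and 0.279 against the same animals. Ccs differed by -0.81 and 0.06 (adjusted p = 0.0102, 0.104 and 0.307 in the same order) and Slc13a5 by -2.12 and 0.01 (0.00107, 0.0179 and 0.236). Ppp1r3c was 1.04 higher in unbound and 0.38 higher in bound RNA (difference 0.66, adjusted p = 0.0165, 0.175 and 0.424). Bhlhe40, a clock repressor also induced by activity, was 0.43 higher in unbound RNA, where it did not pass, and -0.38 in bound RNA (difference 0.80, adjusted p = 0.0384, 0.252 and 0.358).

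**Figure D5:**
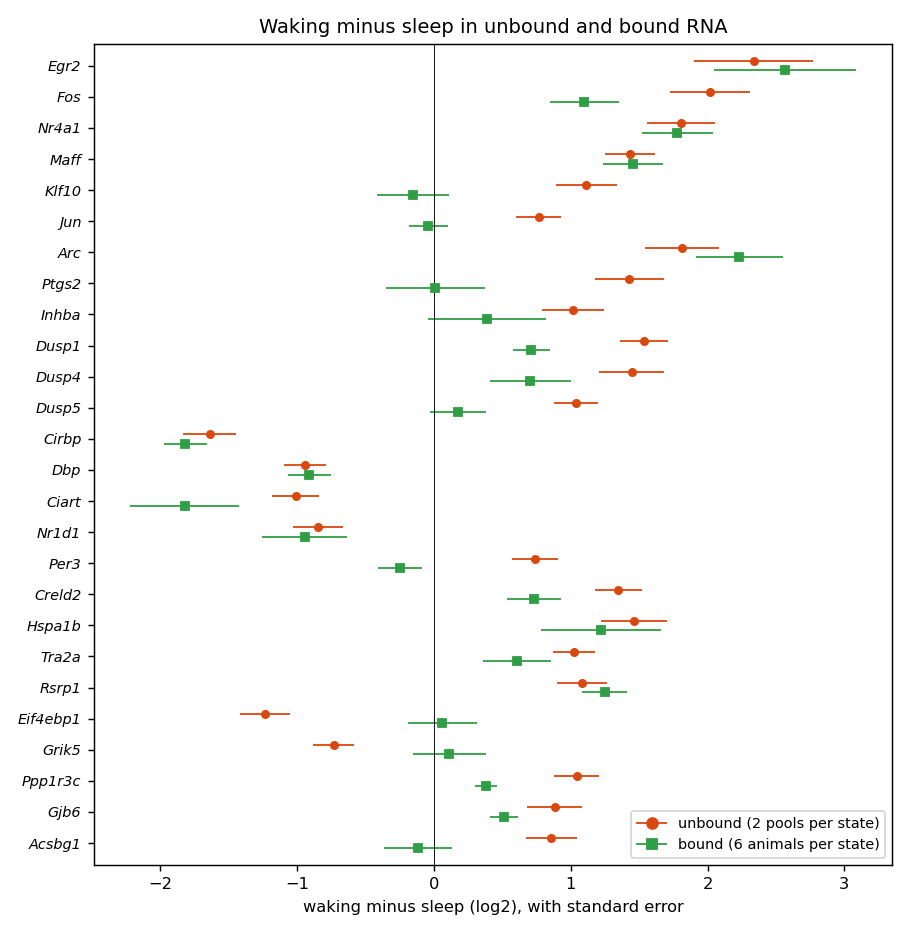
Difference between waking and sleep (log2, horizontal axis) with its standard error for 26 genes (vertical axis), as orange circles for unbound RNA (2 pools per state) and green squares for bound RNA (6 animals per state). Egr2, Nr4a1, Maff, Arc, Cirbp and Dbp have overlapping bars in both fractions, while Ppp1r3c lies at 1.04 in unbound and 0.38 in bound RNA.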

How the data were processed

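RNA was hybridized to Affymetrix mouse genome arrays. The log2 values were deposited by the authors after robust multi-array averaging (RMA), per the submitters' processing notes; the version, and which arrays entered one RMA run, are not given in the sources used here. Of 45101 probe sets, 64 were controls, 34945 named 1 gene, while 932 that named several genes and 9160 that named no gene stayed out of the tests. For each of 18193 genes the brightest probe set on average was used; 9010 genes had more than 1. The number of pools limits the precision, and p-values measure the spread between pools.

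Each array was shifted by a constant so that its median over the tested genes equalled the mean of the medians of the 6 unbound arrays. The 6 unbound pools were modelled in 3 groups without a block (limma 3.58.1, R 4.3.3), with empirical Bayes moderation (3 residual and 3.23 prior degrees of freedom) and Benjamini-Hochberg adjustment over all genes. The effect in unbound minus bound RNA was fitted over all 24 arrays, taken as independent although the fractions share animals, each fraction shifted to its own mean of medians. Each unbound pool minus the mean of the bound arrays of its 3 animals was fitted as an added alternative. Adjusted p under 0.05 was the threshold; 0.10 was added for description. Tables and figures used pandas 2.3.3, numpy 2.4.6 and matplotlib 3.10.9.

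Genes were named as called genes, then the 10 with the highest and the 10 with the lowest moderated statistic, members of the 33 lists, Aldh1l1 and Rpl10a; genes with a mean level of at least 8 were added after their values were seen. Predicted and unnamed transcripts were skipped when genes were chosen by their statistic. The members and lists were chosen with earlier results of these data known. The fit was tested on simulated data with known changes. For waking against sleep it recovered 0% of changes of 0.5 log2 units, 16.4% of 1 and 93.9% of 2. In that test 1 of 74 calls was false. Pool numbers did not pair the pools: deviations of same-numbered pools correlated at 0.0012, 0.0288 and 0.0127. Alternatives covered scaling, dim genes, probe sets, the variance prior, a fold limit, the arrays in the fit, a block and left-out arrays.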

Additional observations from a re-analysis of the deposited data

Results flagged for a closer look

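For 22 named genes the difference between waking and sleep was itself different in unbound and bound RNA in the limma fit that takes all 24 arrays as independent (adjusted p under 0.05). None of the 22 passed when each pool was set against the bound arrays of its own 3 animals. In the fit without dim genes, Slc13a5 was the only one of the 22 that passed. Values below are the unbound difference minus the bound difference in log2 units, and 16 of the 22 genes were dim.

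Among genes outside the lists, it was positive for Lrrc74b at 1.8907, Ttf2 at 2.7518, Wt1 at 1.5673, Uncx at 1.1072, Tlr13 at 1.1923, Mup10 at 2.77 and Rhobtb1 at 1.4494. It was negative for Apof at -2.2188, Igbp1b at -2.5863, Aox4 at -2.0373, Dok1 at -1.3703, Slc13a5 at -2.1227, Fbxw22 at -2.0792 and Adgrf5 at -2.3539. Among genes of higher level chosen after their values were seen, it was -1.0842 for Sirt6 and -0.8715 for Ccs.

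Among list members, the early transcription factor Atf3 had -1.5422, the clock repressor Bhlhe40 0.8045, the glycogen regulator Ppp1r3c 0.6639, the transporter gene Slco1a4 2.1203, and the ribosomal protein genes Rpl37 and Rps2 0.6307 and -0.6272.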

How the results depend on the processing

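The 2 pools per state limit the precision (median SE 0.20 log2 units), and signal near background limits the 6889 dim genes further. No gene passed for waking against sleep with quantile normalization repeated, without dim genes, with every probe set, with a 1.5-fold limit, with the 4 pools alone, or with any 1 of the 6 pools left out (0 to 0). When a left-out pool leaves 1 in a state, that pool is assumed to vary like the others. By contrast, 1149 genes passed on deposited values (90.4% higher), 330 with the mean of probe sets, 426 with an intensity trend and 784 with all 24 arrays. A trend with repeated quantile normalization, an alternative chosen after seeing the data, gave 260. Waking against sleep deprivation had 11 genes, 138 on deposited values and 2 with repeated quantile normalization. Sleep deprivation against sleep had 153, and 341 on deposited values. The effect in unbound minus bound RNA had 879 genes (29.0% higher), 7 without dim genes, 1902 of 34945 with every probe set, 423 to 871 with 1 array left out, and 0 with each pool set against the bound arrays of its own animals, for all genes (2037 at an unadjusted p under 0.05) and without dim genes (473), alternatives chosen after seeing the data; 66.3% were higher on deposited values and 46.4% with repeated quantile normalization. The causes of these shifts were not tested.

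With the pool number as a replicate block, 0 genes passed for waking against sleep and 0 for waking against sleep deprivation, and 0 passed on deposited values with the block. The pools share only a number.

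Of 99 named genes, 92 kept their sign in every alternative. On deposited values Nptx2 turned to 0.0185, Per1 to 0.3188 and Rpl10a to 0.2029. With the mean of probe sets Nptx2 was at 0.2165, Per1 at 0.018, Marveld1 at 0.0381 and Tex9 at 0.1853. With 1 pool left out, Fosb ran from -0.3105 to 0.967, Per1 from -0.1073 to 0.1033 and Per2 from -0.0675 to 1.1629.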
